A study of Mus musculus with 7 samples.

Results

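The synucleins Sncb and Sncg and the parkinsonism genes Uchl1, Park7, Pink1 and Atp13a2 were followed in MN9D cells, a hybrid mouse line that descends from embryonic ventral midbrain and a neuroblastoma and makes dopamine. The 6 genes were chosen by name, and every probe set that the platform's annotation gives to one of them alone was taken, which gave 9 of the 22690 probe sets on the array: 1 each for Sncb, Sncg, Uchl1 and Pink1, 2 for Park7 and 3 for Atp13a2. The rule itself uses the annotation alone, though the genes were picked with earlier results of these data known. RNA of MN9D cells that carried an empty vector (3 arrays) was compared with RNA of MN9D cells labelled as overexpressing alpha- and beta-globin of the mouse (4 arrays), on Affymetrix Mouse Genome 430A 2.0 arrays. The design text asks what globin expression does to the cells, and it states that 1 of 8 hybridised arrays, a control, failed quality assessment. The promoter that drives the globins, the number of clones and the separation of the cultures are not stated in the labels, and the p-values cover only array-to-array spread, part or all of which may be technical.

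Synucleins are small proteins of presynaptic terminals that bind the membranes of vesicles. Beta-synuclein (Sncb) is a brain protein that hinders the clumping of its relative in Lewy bodies in the test tube, and gamma-synuclein (Sncg) is made in sensory, motor and some midbrain neurons. Uchl1 is an abundant neuronal enzyme that frees ubiquitin from short adducts, Park7 (DJ-1) is a small protein that senses oxidants, Pink1 is a kinase that marks damaged mitochondria for removal, and Atp13a2 is a pump that carries polyamines out of lysosomes. Inherited loss of Park7, Pink1 or Atp13a2 causes early parkinsonism in people.

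Sncb and Pink1 were higher in the arrays labelled as overexpressing globin, Sncg was slightly lower, and Uchl1, Park7 and Atp13a2 did not pass the test. Values are RMA expression values on the log2 scale, and a difference is globin-labelled minus empty vector, so that 1 unit is a doubling of signal. A probe set was called changed at a Benjamini-Hochberg adjusted p under 0.05 in limma, a linear model whose spread is moderated over all probe sets, and a ± gives the limma standard error of a difference or the SD of a level. Of the 9 probe sets 2 rose, 1 fell and 6 did not pass, which is 33.3% changed, beside 39.5% of all 22626 tested probe sets (18.3% higher and 21.2% lower). Counted by the brightest probe set of each gene, 3 of 6 genes changed, beside 40.7% of 12393 genes (20.6% higher and 20.1% lower). These shares lie near the background, so the number of changed members says nothing particular about them. The background also holds dim probe sets, whereas no member lay below the 25th percentile on all arrays. With probe sets below that level on all arrays left out, 8956 of the fewer remaining were called. The share among brighter probe sets is thus higher, and the shares of all genes set beside lists below have the same limit. The median change was 0.02 over the 9 probe sets and 0.01 over all probe sets.

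The stretches of genome upstream of the members that changed are shown for the reader who wants to set the values beside sequence, each from 250 to 31 bases before the start of the transcript in RefSeq's GRCm38.p6, a window of 220 bases that holds no transcribed base of these genes in that annotation. All 6 genes were matched by symbol. Sncb lies on the minus strand at chr13:54766626-54766845, Pink1 on the minus strand at chr4:138326327-138326546 and Sncg on the minus strand at chr14:34374700-34374919, and the sequences run 5′ to 3′ toward the gene with motif matches in capitals.
Sncb: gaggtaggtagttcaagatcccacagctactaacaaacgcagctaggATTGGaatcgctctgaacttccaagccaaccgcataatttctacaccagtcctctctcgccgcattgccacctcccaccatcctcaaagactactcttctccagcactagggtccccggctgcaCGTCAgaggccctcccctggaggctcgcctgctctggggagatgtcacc
Pink1: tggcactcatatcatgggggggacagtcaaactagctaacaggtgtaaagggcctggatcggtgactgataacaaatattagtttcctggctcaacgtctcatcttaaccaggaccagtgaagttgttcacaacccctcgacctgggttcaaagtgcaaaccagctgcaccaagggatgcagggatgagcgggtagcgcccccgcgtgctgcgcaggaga
Sncg: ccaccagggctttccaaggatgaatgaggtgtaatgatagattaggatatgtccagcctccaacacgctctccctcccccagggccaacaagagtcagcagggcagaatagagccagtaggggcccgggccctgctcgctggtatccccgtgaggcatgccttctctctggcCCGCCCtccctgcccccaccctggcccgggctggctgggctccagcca
Searched on both strands were 5 motifs, none contained in another: the TATA box TATAAA, the CCAAT box CCAAT, the GC box GGGCGG, the E box CACGTG and the half-site of the cAMP response element TGACG. The Sncb window held a CCAAT box 203 to 199 bases before the start and a cAMP half-site 79 to 75 bases before it, motifs found in 31% and 14.8% of 32851 windows of the same length. The Sncg window held a GC box 78 to 73 bases before the start, found in 28.5% of windows, and the Pink1 window held 0 of the 5 motifs and so has no capitals. Of the members that did not pass, Park7 and Atp13a2 had a GC box each and Uchl1 had 0 matches. The pair that rose thus had no motif of the 5 in common. A match is a description of letters and not of a bound site.

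Sncb, the neuronal synuclein of most brain regions, stood at 9.45, 9.35 and 9.50 on the empty vector arrays and at 9.76, 9.79, 9.82 and 9.83 on the globin-labelled arrays. All 4 globin-labelled values were higher than all 3 empty vector values, with a gap of 0.25 between the groups, with groups that likewise did not overlap at 43.5% of all probe sets. The means were 9.44 ± 0.08 (SD, n = 3) and 9.80 ± 0.03 (SD, n = 4), a rise of 0.36 ± 0.05 or 1.29-fold (95% interval 1.20 to 1.38, limma adjusted p = 0.000250). Among all tested probe sets 6.61% rose by as much or more.

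Sncg, the synuclein of peripheral and some midbrain neurons, stood at 8.78, 8.95 and 8.78 on the empty vector arrays and at 8.72, 8.68, 8.63 and 8.64 on the globin-labelled arrays. The groups did not overlap, by a narrow margin of 0.05, and the second empty vector array stood above the other pair. Sncg fell by 0.17 ± 0.05, to 0.890 of its empty vector signal (95% interval 0.820 to 0.966, limma adjusted p = 0.0301), and 20.2% of all probe sets fell by as much or more. The call was lost without empty vector array 2 (-0.11, limma adjusted p = 0.0996) and without globin-labelled array 2, 3 or 4 (limma adjusted p = 0.0582, 0.0746 and 0.0674), while the sign stayed negative in each.

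The synuclein signals were compared within each array. The difference between the signals of Sncb and Sncg on the same array ranged from 0.41 to 0.72 on the empty vector arrays and from 1.04 to 1.20 on the globin-labelled arrays, so that it was wider by 0.53 with no overlap (exact permutation test, two-sided p = 0.0286, the lowest of the 35 possible splits). Sncb was higher and Sncg lower on every globin-labelled array than on any empty vector array, so the difference had to separate the groups. The test therefore adds nothing to the separate results of Sncb and Sncg. Adjusted over the 5 pairs of probe sets compared in this way the value was 0.143, which does not pass. It is the lowest value possible when a single pair reaches 0.0286. Only the widening is interpretable, since signals of different probe sets are not on a common scale.

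Pink1, the mitochondrial kinase, showed the largest change of the members. It stood at 9.19, 9.21 and 9.32 on the empty vector arrays and at 9.69, 9.60, 9.75 and 9.71 on the globin-labelled arrays. The groups were separated by 0.28, and the spread within each group was small beside that (SD 0.07 and 0.06). The rise was 0.45 ± 0.05 or 1.36-fold (95% interval 1.26 to 1.48, limma adjusted p = 0.000130), and 4.47% of all probe sets rose by as much or more. With any single array left out the rise of Pink1 ranged from 0.42 to 0.49 and that of Sncb from 0.32 to 0.40, and both passed each time.

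**Figure D1:**
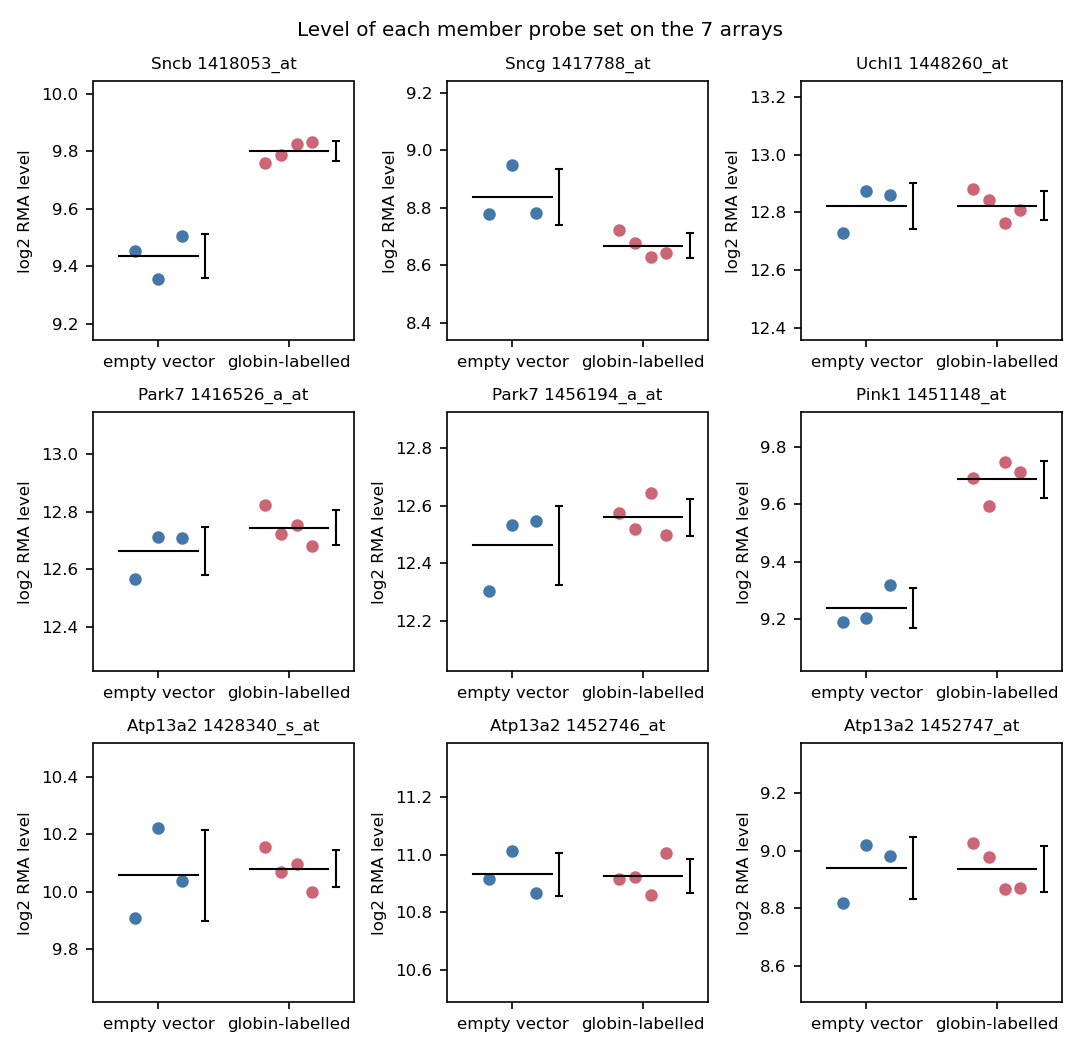
Signal of each of the 9 probe sets (log2 RMA level, vertical axis, 0.9 units in every panel) on the 3 empty vector and 4 globin-labelled arrays; points are arrays, horizontal lines group means and bars 1 SD to either side. The groups are apart for Sncb, Pink1 and, narrowly, Sncg, and overlap for the other 6 probe sets.

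Uchl1, the ubiquitin hydrolase long used as a neuronal marker, did not pass. It stood at 12.73, 12.87 and 12.86 on the empty vector arrays and at 12.88, 12.84, 12.76 and 12.81 on the globin-labelled arrays. The groups overlapped, with a difference of 0.00 ± 0.05 (limma adjusted p = 0.983). The interval of the ratio ran from 0.926 to 1.08, so a larger change of signal in either direction lies outside it. Uchl1 stood at the 95.4th percentile of the arrays, where array signals can be compressed.

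Park7, the oxidant-sensing protein DJ-1, was measured by a pair of probe sets whose changes differed by -0.02 (exact permutation test, two-sided p = 0.800, and 1 when adjusted for the 5 pairs). With 35 splits the smallest p of a pair is 0.0286, which passes after adjustment only if several pairs reach it. The test thus had little power to show a difference. Probe set 1416526_a_at stood at 12.57, 12.71 and 12.71 against 12.82, 12.72, 12.75 and 12.68, a difference of 0.08 ± 0.05 (limma adjusted p = 0.255). Probe set 1456194_a_at stood at 12.30, 12.53 and 12.55 against 12.57, 12.52, 12.64 and 12.50, a difference of 0.10 ± 0.07 (limma adjusted p = 0.282). On both, empty vector array 1 was the lowest of the 7 arrays and the rest overlapped. Without that array the differences were 0.03 and 0.02. The interval of the ratio ran from 0.975 to 1.15 on the first and from 0.964 to 1.19 on the other. Both were bright, as Uchl1 was, at the 94.8th and 93.7th percentile of the arrays.

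Atp13a2, the lysosomal polyamine pump, was measured by 3 probe sets, and on all of them the groups overlapped. Probe set 1452746_at, the brightest, stood at 10.92, 11.01 and 10.87 against 10.92, 10.92, 10.86 and 11.01, a difference of -0.00 ± 0.05 (limma adjusted p = 0.950). Probe set 1428340_s_at stood at 9.91, 10.22 and 10.04 against 10.15, 10.07, 10.10 and 9.999, a difference of 0.02 ± 0.07 (limma adjusted p = 0.826). Probe set 1452747_at stood at 8.82, 9.02 and 8.98 against 9.03, 8.98, 8.87 and 8.87, a difference of -0.00 ± 0.06 (limma adjusted p = 0.970). The 3 probe sets gave changes within 0.03 of each other, and their pairs had two-sided exact permutation p-values of 0.600, 0.629 and 1 (each 1 after adjustment over the 5 pairs). As for Park7, the permutation test had little power to show a difference between probe sets. The widest interval of the ratio, that of 1428340_s_at, ran from 0.908 to 1.14.

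**Figure D2:**
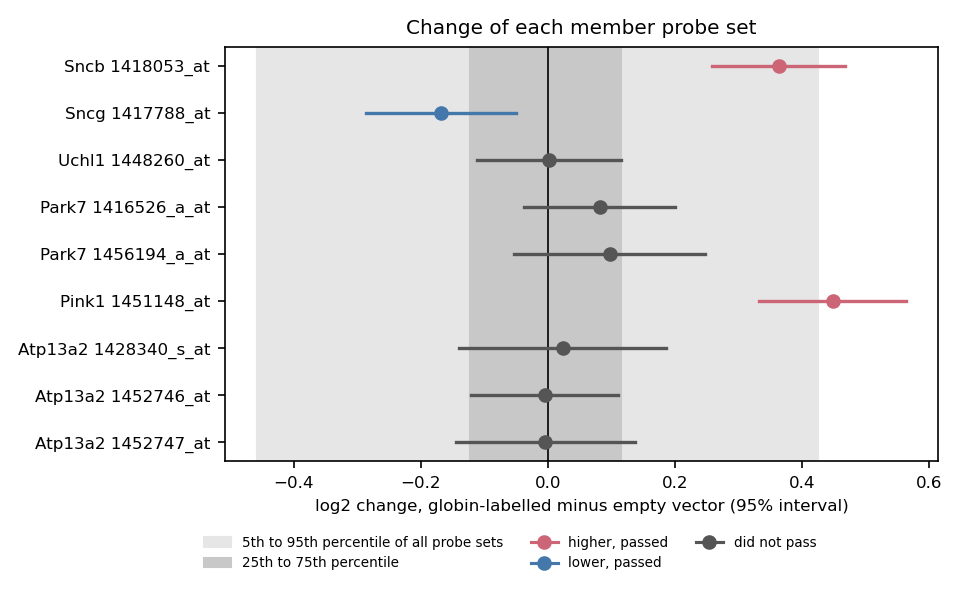
Log2 change of the 9 probe sets (horizontal axis, globin-labelled minus empty vector) with limma's 95% interval; grey bands give the 5th to 95th (-0.46 to 0.42) and 25th to 75th (-0.12 to 0.12) percentile of all 22626 probe sets. Pink1 lies beyond the wide band, Sncb and Sncg lie inside it but beyond the narrow one, and the intervals of the other 6 probe sets include 0.

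Array 1 of the empty vector group recurred among the members that did not pass: it was the lowest of the 7 arrays on 5 of these 6 probe sets. It and globin-labelled array 4 lay at one end of the second principal component, which held 5.96% of the variance, while the first held 81.5% and separated the groups. Without both arrays Sncb rose by 0.36, Pink1 by 0.42 (limma adjusted p = 0.00562 and 0.00463), and Sncg, at -0.19, did not pass (limma adjusted p = 0.0678). The 6 others did not pass, as with all arrays, and their changes lay between -0.04 and 0.06.

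**Figure D3:**
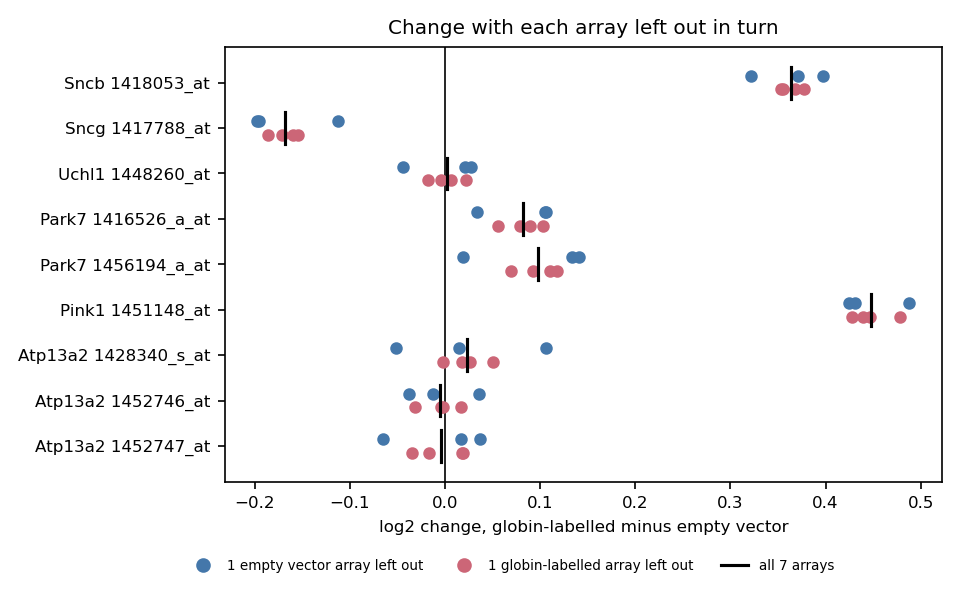
Log2 change of the 9 probe sets (horizontal axis, globin-labelled minus empty vector) with each of the 7 arrays left out in turn; points are the refits and vertical bars the value with all arrays. Sncb and Pink1 stay above 0.3 in each, and the point of Sncg nearest to 0 is the one without empty vector array 2.

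Medians of the 7 arrays lay between 8.90 and 8.94, and precision is set by having 3 and 4 arrays. As a check of the labels, 3 probe sets shared by the alpha-globin genes Hba-a1 and Hba-a2 rose by 5.16 to 7.15. The probe sets of Hba-a2 alone and Hba-a1 alone did not pass (-0.03 ± 0.05 and 0.03 ± 0.06). Of the 3 probe sets of adult beta-globin genes only 1 passed, with a rise of 0.34 ± 0.07. It was dim, at the 20.8th percentile, and the probe set shared by adult beta-globin genes did not pass (0.12 ± 0.06). The beta part of the label thus had little support in the signals. A flat probe set does not contradict it, since single-gene alpha probe sets were flat where shared ones rose. The arrays are therefore called globin-labelled. No member lay below the 25th percentile on all arrays. Of 7 markers of dopaminergic neurons 0 rose and 2 fell. Th, which makes the precursor of dopamine, was the brightest (11.78 and 11.08) and fell by 0.70 ± 0.05. Ddc fell by 0.22 ± 0.05, and Nr4a2 and Pitx3 did not pass (-0.13 ± 0.09 and 0.06 ± 0.07). Slc6a3, Aldh1a1 and En1 lay below the 25th percentile on all arrays, so these defining markers were at the dim end here. Of 8 general neuronal markers 2 rose and 3 fell: Rbfox3 rose by 1.16 ± 0.08 and Elavl4 by 0.18 ± 0.04, Stmn2 fell by 1.20 ± 0.06, Tubb3 fell by 0.80 ± 0.06 and Map2 fell by 0.48 ± 0.11. Their mean level per array lay between 8.84 and 8.90 in the empty vector group and between 8.72 and 8.74 in the globin-labelled group. Of 31 measured markers of astrocytes, oligodendrocytes, microglia, endothelium, fibroblasts and erythroid cells 5 changed, beside 40.7% of all genes. Mbp and Kdr fell, and Tyrobp, Vwf and Slc4a1 rose. Those that rose were dim, at percentiles 25.5, 19.1 and 15.3 of the arrays, and the groups were not apart for Tyrobp and Slc4a1. The mean level per list and array lay between 5.96 and 6.64, but single markers were brighter. Mbp stood at 8.53 in the empty vector arrays and fell by 0.70 ± 0.06, and Sox10, which did not pass, stood at 8.18. The part of any of these markers in the members' changes was not tested.

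Genes known to act beside the synucleins, not all of them vesicle genes, moved both ways. Of 21 listed, 18 had a probe set of their own, and 5 rose, 7 fell and 6 did not pass (66.7% changed, beside 40.7% of all genes; median -0.08, beside 0.02 for all genes). Syn1, the vesicle-tethering synapsin, fell from 10.69 ± 0.02 to 9.77 ± 0.04, by 0.92 ± 0.04 (limma adjusted p = 3.23e-07). Rab3a, a vesicle GTPase, rose from 9.25 ± 0.10 to 9.94 ± 0.06, by 0.69 ± 0.06 (limma adjusted p = 1.77e-05). Dnajc5, the vesicle co-chaperone CSPalpha, fell by 0.39 ± 0.04 on its brightest probe set and fell on each of its other 4. Cplx2, a complexin that clamps SNARE proteins, rose by 0.47 ± 0.06, whereas its relative Cplx1 fell by 0.32 ± 0.04. The rise of Sncb was thus accompanied by changes of vesicle genes in both directions.

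Ubiquitin recycling is the setting of Uchl1. Of 20 listed genes 12 were measured, and 3 rose, 3 fell and 6 did not pass (50% changed, near the 40.7% of all genes; median 0.03). Otub2 and Otub1, deubiquitinating enzymes, rose by 0.55 ± 0.05 and 0.33 ± 0.06. Uchl5, a relative of Uchl1 that works at the proteasome, rose by 0.21 ± 0.04 on its brighter probe set. Its other probe set, dim at the 17.6th percentile, did not pass (-0.08 ± 0.07). Ube2d2a, a ubiquitin-conjugating enzyme, fell by 0.25 ± 0.04, and its other 3 probe sets fell as well.

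Glyoxal and oxidant defence is where Park7 acts. Of 19 listed genes 16 were measured, and 4 rose, 6 fell and 6 did not pass (62.5% changed, beside 40.7% of all genes, which also divided about evenly by direction; median 0.07). Hmox1, the heme oxygenase that breaks down heme, fell by 0.64 ± 0.08 from 9.95 ± 0.09 to 9.31 ± 0.15 (limma adjusted p = 0.000205). Srxn1, which repairs peroxiredoxins, fell by 0.38 ± 0.04, and Akr1a1, an aldehyde reductase, fell by 0.33 ± 0.04. Hagh, the second enzyme of the glyoxalase pathway, rose by 0.36 ± 0.05. The fall of Hmox1 and the flat signal of Park7 were measured on the same arrays, and their relation was not tested.

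Mitochondrial import and quality control is where Pink1 acts. Of 36 listed genes 32 were measured, and 8 rose, 8 fell and 16 did not pass (50% changed, near the 40.7% of all genes; median 0.02). Parl, the inner-membrane protease that cuts imported Pink1, rose by 0.34 ± 0.04 from 11.82 ± 0.04 to 12.16 ± 0.03 (limma adjusted p = 0.000143). Bnip3, a mitophagy receptor, rose by 0.43 ± 0.06. Sqstm1, the autophagy receptor p62, fell by 0.33 ± 0.04, and Oma1, a stress-activated protease of the inner membrane, fell by 0.30 ± 0.04. Pink1 and its protease thus rose on the same arrays, while the receptors Bnip3 and Sqstm1 moved in opposite directions.

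Polyamine genes around Atp13a2 changed in 4 of 12 measured of 18 listed, of which 3 rose and 1 fell. That is 33.3% changed, near the 40.7% of all genes (median 0.03). Odc1, the first enzyme of polyamine synthesis, rose by 0.38 ± 0.05 and rose on its other 2 probe sets. Srm, the spermidine synthase, rose by 0.22 ± 0.05, and Oaz1, the antizyme that restrains Odc1, rose by 0.21 ± 0.04. Sat1, which acetylates polyamines for export, fell by 0.40 ± 0.05.

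Of 18 other genes linked to parkinsonism 11 were measured, and 2 rose, 2 fell and 7 did not pass. That is 36.4% changed, near the 40.7% of all genes (median -0.01). Tmem230, a vesicle membrane protein, rose by 0.86 ± 0.08 from 7.42 ± 0.14 to 8.29 ± 0.11 (limma adjusted p = 2.77e-05), more than any of the 6 members. Pla2g6, a phospholipase, rose by 0.30 ± 0.06. Gak, a kinase that uncoats clathrin vesicles, fell by 0.32 ± 0.05, and Dnajc13, an endosomal co-chaperone, fell by 0.25 ± 0.04.

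**Figure D4:**
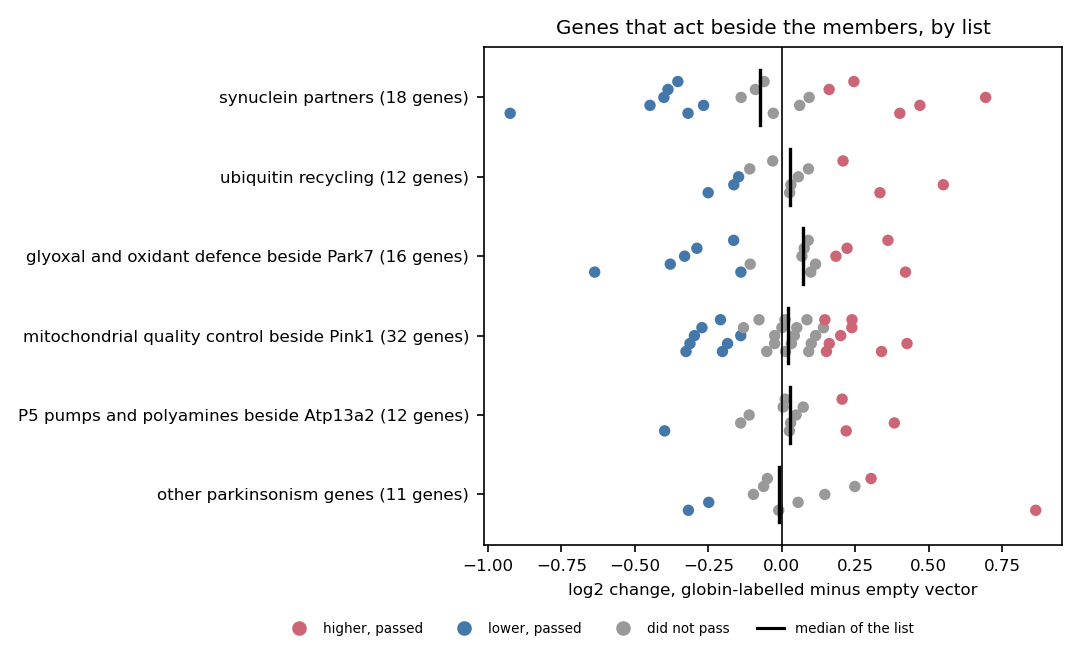
Log2 change (horizontal axis, globin-labelled minus empty vector) of the measured genes of 6 lists, 1 point per gene by its brightest probe set, coloured where limma's adjusted p was under 0.05; black bars are list medians. Changed genes lie on both sides of 0 in each list, and the medians lie between -0.08 and 0.07.

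Likeness of pattern was measured as the root mean square difference between log2 values over the 7 arrays, after each probe set's own mean was subtracted. Nearest to Sncb were Chid1 (0.03) and Sh3gl2 (0.03), which rose by 0.40 ± 0.04 and 0.36 ± 0.05. Nearest to Pink1 were Ina (0.03) and Ndufb8 (0.04), which rose by 0.47 ± 0.05 and 0.45 ± 0.04. Nearest to Sncg were Rgl3 and Trim3 (0.02 each), which fell by 0.19 ± 0.05 and 0.17 ± 0.05. The members that did not pass had Ehmt2 and Ryk (Uchl1), Cdc37 and Ppib (Park7) and Cipc and Larp4b (Atp13a2) nearest, at 0.01 to 0.02. Within 0.1 of a member lay 709 genes for Pink1, 1147 for Sncb, 3324 for Sncg and 5377 to 6160 for the members that did not pass. The distance was not scaled, so probe sets with small changes lie close together whatever their pattern. These counts therefore follow the size of a member's change and say nothing about its pattern. Nearest genes were picked on the same values, so their like changes are no separate result.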

How the data were processed

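The deposited values are log2 signals that the authors computed with RMA, according to the submitters' processing notes, which name no software version. RMA corrects for background, equalises the distributions of the arrays and condenses each probe set to a single value. A shift common to most transcripts is therefore invisible. Very bright signals may be compressed on arrays, which was not measured here. Each array took its group from its title. After removal of 64 array controls from the 22690 probe sets, the remaining 22626 went into limma 3.58.1 in R 4.3.3 (lmFit, eBayes, a single group term, two-sided p-values, Benjamini-Hochberg adjustment over all of them). The annotation gave 20380 of them 1 symbol, and a gene in a list was represented by the brightest such probe set. The members and lists were chosen with earlier results of these data known. Named from each list were up to 4 changed genes with the smallest p, and Cplx1 was added after its values were seen; the 2 nearest genes per member and the brightest marker per list were also taken by rule. The fit was tested on simulated data. Arrays with the same replicate number did not deviate together (correlations of deviations from the group means -0.36, -0.30 and -0.14), so the numbers were not used as pairs. Alternatives were other scalings, moderation, a filter on dim probe sets, a replicate block and leaving out arrays. Promoter sequences are RefSeq's.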

Additional observations from a re-analysis of the deposited data

Results flagged for a closer look

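Within the 4 globin-labelled arrays, 33 probe sets (the members and the changed list genes named) were examined for an array that stood apart from the others by Dixon's criterion, which marks about 5% of groups by chance. It marked 2, and neither is a member. Hmox1 was lowest on globin-labelled array 4, at 9.09 against 9.37 on the next array. Oma1 was highest on globin-labelled array 1, at 8.34 against 8.24 on the next. The empty vector arrays were not examined in this way, for the members or the other genes.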

How the results depend on the processing

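Over 13 alternatives Sncb kept a rise of 0.32 to 0.40 (limma adjusted p 0.000121 to 0.00562) and Pink1 one of 0.42 to 0.49 (limma adjusted p 5.22e-05 to 0.00463), both past the threshold each time. Sncg kept its sign (-0.20 to -0.11) and lost its call in 6 of the 13 (limma adjusted p 0.0217 to 0.116). Uchl1, Park7 and Atp13a2 passed in none of the 13. Between 2 and 3 member probe sets and between 6337 and 9224 of all probe sets were called; neither other scaling moved the median change of all probe sets beyond 0.02. With the replicate block, which leaves out globin-labelled array 4, Sncg stood at -0.16 (limma adjusted p = 0.116) and 10 genes of the list of mitochondrial quality control changed (5 higher, 5 lower) in place of 16; the cause was not tested. The other 5 lists stayed within 1.5 times their counts under each of their 14 alternatives. Signal over background was not measured, and precision is set by having 3 and 4 arrays. Leaving out empty vector array 1 and globin-labelled array 4 together was an alternative chosen after seeing the data.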

Other observations

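Neighbouring genes were looked at after the values were seen, as the 5 nearest measured genes on either side of each member in RefSeq's gene order. Around Atp13a2, on chromosome 4, 5 of 10 neighbours rose and 1 fell (median 0.16). Around Pink1, also on chromosome 4, 3 rose and 1 fell (median 0.09), with changes from -0.24 to 0.40, and around Park7 on the same chromosome 2 rose and 3 fell (median 0.06). Around Sncb, on chromosome 13, 1 rose and 3 fell (median -0.01). Around Uchl1 4 rose and 1 fell, and around Sncg 2 rose and 0 fell in limma, beside 40.7% of all genes that changed.

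Among the list genes, probe sets of a gene did not always move together; these were picked after their values were seen. For Hspa8, the constitutive chaperone of clathrin uncoating and vesicle proteins, probe set 1431182_at rose by 0.85 ± 0.06 from 8.56 to 9.41, while its other 3 differed by 0.03 to 0.09 and did not pass. Those 3 were far brighter, at 13.59 to 14.45 in the empty vector arrays, so the levels compared are unlike. For Tomm70a, a receptor of the mitochondrial import gate, probe set 1434243_s_at rose by 0.74 ± 0.04, while its other 3 differed by 0.00 to 0.04 and did not pass. By contrast, Sncaip, which encodes the synuclein-binding protein synphilin-1, fell on both of its probe sets, by 0.35 ± 0.08 and by 0.43 ± 0.07. Both were dim, at the 22.7th and 14.4th percentile, with levels of 6.83 and 6.12 in the empty vector arrays.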
